A study of Rattus norvegicus with 4 samples.

Results

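Chemokines and their receptors were examined in spatial transcriptomes of the rat trigeminal nerve, as every gene whose symbol begins with Ccl, Cxcl, Cx3cl, Ccr with a digit, Cxcr, Cx3cr or Ackr. The rule found 53 of the 32623 genes counted, 33 ligands and 20 receptors. Of these, 33 genes (26 ligands and 7 receptors) had 30 or more unique molecular identifiers (UMIs, each a captured transcript molecule) over the whole slide and are described here. A further 15 had 1 to 29 UMIs, and 5, the receptors Ccr1l1, Ccr4, Ccr7, Ccr8 and Cxcr5, had 0. Ccr2 and Ackr1 were not analysed here.

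The tissue was the trigeminal root, the semilunar (trigeminal) ganglion and the proximal branches of adult male Sprague-Dawley rats, cut at 10 micrometres onto a slide with 4 Visium capture areas, a grid of barcoded spots that each take up the RNA of several cells. In the trigeminal neuralgia model (TN), the trigeminal nerve root of 1 side was chronically compressed, and areas TN1, TN2 and TN3 each held the diseased side of 1 animal. The healthy control area (HC) held tissue of 2 animals; the series description takes it from the healthy side of model animals, whereas the methods speak of sham-operated controls, so TN against HC may compare sides of the same animals. HC is a single area, so an effect of the compression and a difference between areas, including which parts of the nerve each section cut, cannot be told apart, and the spread behind every test is that of 3 TN areas. The day of sampling is not given in the sources used here beyond its following the behavioural tests.

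Chemokines are small secreted proteins that direct the migration of leukocytes along gradients, and they bind receptors that signal through G proteins. Inflammatory members such as Ccl2 are induced by tissue damage or cytokines, whereas homeostatic members such as Cxcl12 are made without injury, and atypical receptors (Ackr) take up chemokines without G-protein signalling. In sensory ganglia, the Ccl2 and Cx3cl1 systems are known for their part in the exchange between injured neurons, glia and macrophages.

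The areas held 1587, 1256, 1917 and 2013 spots (TN1, TN2, TN3 and HC) with 23546025, 38769935, 32239597 and 41335930 UMIs. Of the barcodes, 1236 occurred in 1 area, 1526 in 2, 759 in 3 and 52 in all 4, since the areas of a slide share a barcode set, and each spot was identified by barcode and area. TN1 stood apart from TN2 and TN3 in many of the values below. Sections differed in content. A region of central neurons had 426, 130, 0 and 0 spots, and a region led by astrocyte genes had 6, 77, 162 and 2 spots. Peripheral myelin had 409, 9, 378 and 17 spots, and blood and bone had 97, 63, 188 and 517. A cluster left unnamed (cluster 5) had 1, 352, 483 and 0 spots, so values over all spots of TN2 and TN3 include tissue that HC lacked. Summed markers of macrophages (9 genes) were at 679.9, 1912 and 2296 UMIs per 1000000 of the area (CPM) in TN1, TN2 and TN3 against 372 in HC, with 8 of the 9 higher in all 3 TN areas and Cd163 lower. Those of connective tissue (6 genes found) were at 1974, 5777 and 5583 against 1450, with 5 of the 6 higher in all 3 TN areas. Col1a1 was the exception, at 434.8 CPM in TN1 and 801.8 in HC. Markers of neutrophils (7 genes) were at 24.5, 21.7 and 36.9 against 210.0, with 5 of the 7 lower in all 3 TN areas. Their part in the chemokine differences was not tested, and in summed spots fewer cells of a type and less RNA per cell cannot be told apart.

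Chemokine transcripts made up 291, 647 and 795 CPM of TN1, TN2 and TN3, against 172 CPM of HC. Cxcl14, a ligand made by epithelia, glia and connective tissue cells whose receptor is debated, was the most abundant member by far with 33679 UMIs. It was at 75.9, 375 and 515 CPM in the TN areas, a mean of 322 ± 224 (SD, n = 3), and at 17.8 in HC. All 3 TN areas lay above HC, but TN1 was nearer to HC than to TN2 or TN3 on the linear scale. The fitted log2 fold change was 4.10 (SE 1.28), and edgeR's quasi-likelihood test with Benjamini-Hochberg adjustment did not call it (adjusted p = 0.556), whereas DESeq2 on the same sums did (adjusted p = 0.000851). Cxcl14 had a UMI in 48.9% of TN1 spots, 97.0% of TN2 spots and 85.4% of TN3 spots against 25.8% of HC spots (exact 95% binomial interval 23.9 to 27.8%, counting error only). With each spot thinned to 2000 UMIs, which left out 150 shallower spots, those shares became 17.4, 48.8, 53.2 and 5.59%.

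**Figure D1:**
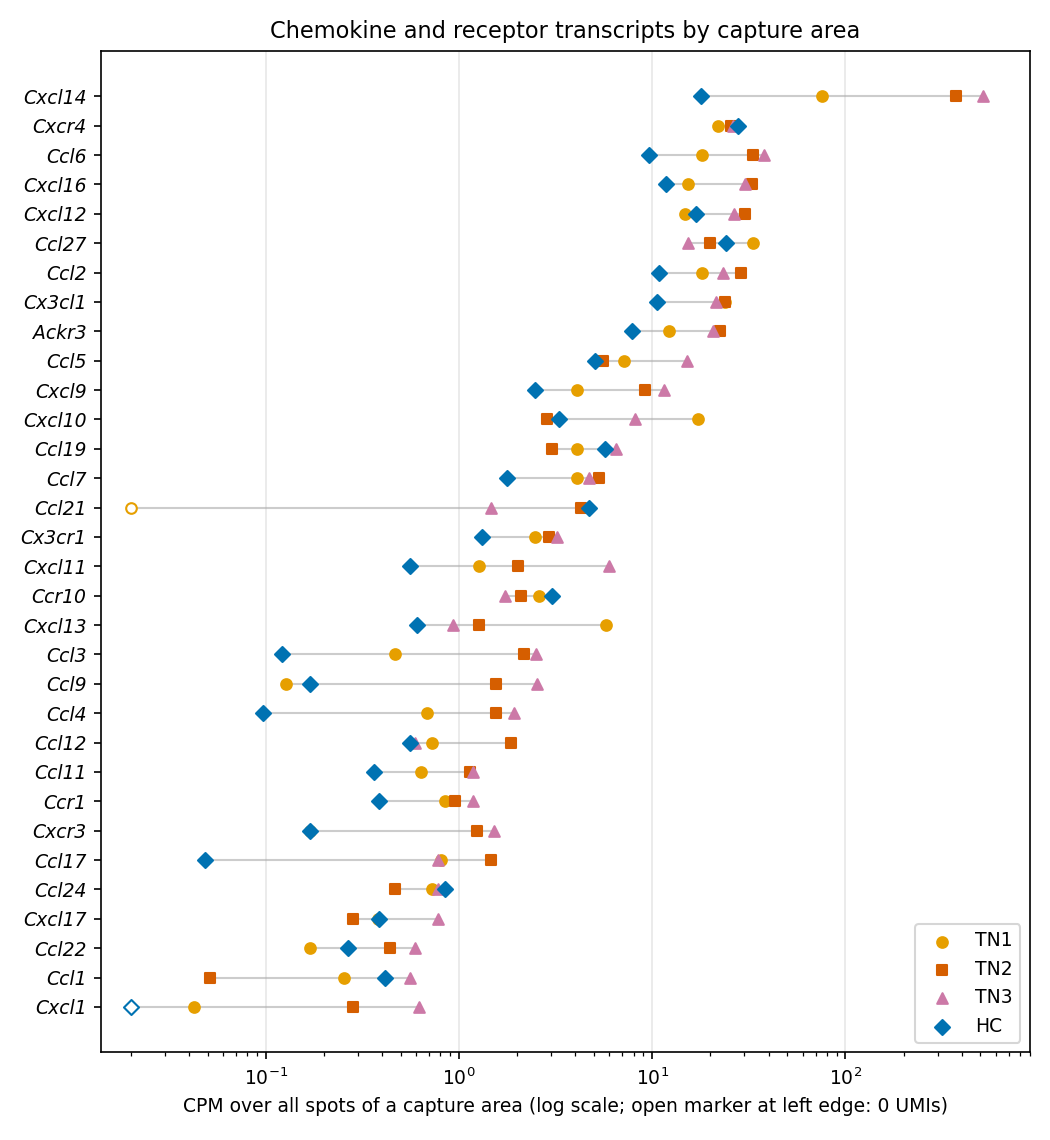
CPM over all spots (log scale) of members with 30 or more UMIs, 1 marker per capture area, ordered by total UMIs. Cxcl14 spans 17.8 CPM in HC to 515 in TN3, whereas the 4 areas lie close together for Cxcr4, and the open markers show Ccl21 with 0 UMIs in TN1 and Cxcl1 with 0 in HC.

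Among the ligands known to attract monocytes and macrophages, none passed the adjusted test. Ccl2, the main monocyte chemoattractant, was at 18.01, 28.9 and 23.3 CPM in TN1, TN2 and TN3 and at 10.9 in HC, a log2 fold change of 1.02 (SE 0.35, adjusted p = 0.556). Its relative Ccl7 was at 4.08, 5.29 and 4.68 CPM against 1.77 (log2 fold change 1.32, SE 0.42, adjusted p = 0.556). For both genes the lowest TN area stood above HC. Ccl6, a macrophage-derived ligand found in rodents, was at 18.2, 33.1 and 38.1 CPM against 9.58, with a log2 fold change of 1.56 (SE 0.50, adjusted p = 0.556). Ccl9, which lies beside Ccl6 in the rat genome, had 3 UMIs in TN1 and 7 in HC, but 60 in TN2 and 82 in TN3. Ccl3 and Ccl4, inflammatory ligands made by macrophages, were low but kept apart: Ccl3 had 11, 84 and 81 UMIs against 5, and Ccl4 had 16, 60 and 62 against 4. Ccl17, a ligand of Ccr4 made by dendritic cells and macrophages, had 19, 57 and 25 UMIs in the TN areas and 2 in HC, while its receptor Ccr4 had none. Other ligands with few UMIs were mixed. Ccl11 was at 0.637, 1.13 and 1.18 CPM in TN1, TN2 and TN3 against 0.363 in HC. Ccl12 was at 0.722, 1.86 and 0.589 against 0.556, with TN3 close to HC. HC lay within the TN range for Ccl22 (0.170, 0.438 and 0.589 against 0.266), Cxcl17 (0.382, 0.284 and 0.775 against 0.387) and Ccl1 (0.255, 0.0516 and 0.558 against 0.411). Ccl24 was lower, at 0.722, 0.464 and 0.775 against 0.847.

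Cx3cl1 and Cxcl16 are the members made as membrane-bound proteins and shed from the cell surface. Cx3cl1 (fractalkine), made by neurons and endothelium, varied little among the TN areas, at 23.9, 23.7 and 21.4 CPM, and was at 10.6 in HC. The log2 fold change was 1.04 (SE 0.25, adjusted p = 0.556), the smallest standard error of any member that was higher in all 3 TN areas and had a fold change printed here. Cxcl16 was at 15.2, 32.8 and 30.2 CPM against 11.8 (log2 fold change 1.07, SE 0.50, adjusted p = 0.562), and TN1 was close to HC. Its receptor Cxcr6, found on T cells, had 11 UMIs in all.

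Of the interferon-induced ligands of Cxcr3, which draw activated T cells, Cxcl9 was at 4.08, 9.21 and 11.4 CPM in the TN areas and 2.47 in HC (log2 fold change 1.66, SE 0.70, adjusted p = 0.556). Cxcl11 was at 1.27, 2.01 and 5.99 against 0.556 CPM (log2 fold change 2.40, SE 1.13, adjusted p = 0.560), and without TN3 its log2 fold change was 1.48. Cxcl10 did not share this order: it was at 17.2, 2.84 and 8.13 CPM with HC at 3.29, so HC lay within the TN range (log2 fold change 1.43, SE 1.05, adjusted p = 0.628, and 0.66 without TN1). Cxcr3 itself had 4, 48 and 49 UMIs in the TN areas and 7 in HC. T-cell markers (6 of 7 genes found) summed to 4.33, 8.82 and 8.90 CPM against 2.37, with 4 of the 6 higher in all 3 TN areas. The part of T cells in the Cxcr3 counts was not tested. Ccl5, a T-cell and macrophage ligand, was at 7.13, 5.55 and 15.1 CPM against 5.03.

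The homeostatic ligands and the B-cell and lymphoid ligands showed no common direction. Cxcl12, the ligand of Cxcr4 and Ackr3, was at 14.8, 30.3 and 26.5 CPM with HC at 16.9, so the groups overlapped (log2 fold change 0.42, SE 0.45). Ccl27, a ligand known from skin, was at 33.2, 19.99 and 15.3 CPM with HC at 24.1, again inside the TN range (log2 fold change -0.17, SE 0.46). The annotated Ccl27 gene overlaps the end of its neighbour Il11ra1, and strand use in counting is not stated, so its counts are uncertain. Ccl19 overlapped as well, at 4.08, 3.02 and 6.45 CPM against 5.66. Ccl21, a ligand of Ccr7 made by lymphatic endothelium, had 0 UMIs in TN1, which allows up to 0.127 CPM (3 counts), against 165 in TN2, 47 in TN3 and 195 in HC. Near-identical copies of Ccl21 are known in rodents, so this count is uncertain too. Cxcl13, which draws B cells, had 136 UMIs in TN1 against 49, 30 and 25 in TN2, TN3 and HC.

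The receptors were less abundant than the leading ligands, with Cxcr4 the exception. Cxcr4 was the second most abundant member, at 21.8, 25.7 and 26.3 CPM in the TN areas and 27.7 in HC (log2 fold change -0.25, SE 0.24, adjusted p = 0.694), and HC was just above the highest TN area. Ackr3, the scavenging receptor for the same ligand, was at 12.2, 22.4 and 20.5 CPM against 7.81, with a log2 fold change of 1.15 (SE 0.44, adjusted p = 0.556). Cx3cr1, the receptor of Cx3cl1 on microglia and macrophages, was at 2.46, 2.91 and 3.19 CPM against 1.31 (log2 fold change 1.05, SE 0.46, adjusted p = 0.556). Microglial markers (5 genes) summed to 87.1, 100.9 and 139 CPM against 58.7, with Siglech at 0 in TN1 and HC and Sall1 lower in all 3 TN areas. Ccr10, the receptor of Ccl27, was highest in HC, at 3.02 CPM against 2.59, 2.09 and 1.74. Ccr1 had 20, 37 and 38 UMIs against 16. Cxcr2, the neutrophil receptor of Cxcl1, had 1 UMI in all, although neutrophil genes were counted in every area, and Cxcl1 had 1, 11, 20 and 0 UMIs in TN1, TN2, TN3 and HC.

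In counts over the 33 members tested, 0 were called by edgeR over all spots (0% of 14902 genes were). At an unadjusted p under 0.05 there were 9 (Cxcl14, Ccl6, Ccl2, Cx3cl1, Ackr3, Ccl7, Ccl3, Ccl4 and Ccl17), where 8.53% of all genes passed. All 3 TN areas lay above HC for 19 members (28.7% of all genes) and below it for 4, Cxcr4, Ccl21, Ccr10 and Ccl24 (30.6% of all genes). A 2-fold excess over HC in every TN area held for 8 members, Cxcl14, Ccl7, Cxcl11, Ccl3, Ccl4, Ccl17, Ccr1 and Cxcl1, and for 4.17% of all genes. Cxcl1 had 0 UMIs in HC, so it met this rule at any TN count, and in TN1 it had 1 UMI. Ccl3, Ccl4 and Ccl17 had only 5, 4 and 2 UMIs in HC. The median log2 fold change was 1.07 over the members and 0.06 over all genes. A gene counted almost only in TN can pass the count filter, as Cxcl1 and Ccl17 did, so these counts describe the members and were not tested against other genes. DESeq2 called 1 member, Cxcl14, and 1.06% of all genes. With TN1 left out, edgeR called 13 members (Cxcl14, Ccl6, Cxcl16, Ccl2, Cx3cl1, Ackr3, Cxcl9, Ccl7, Ccl3, Ccl9, Ccl4, Cxcr3 and Ccl17), all higher in TN, and 14.8% of all genes, and without TN2 or without TN3 it called 0.

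**Figure D2:**
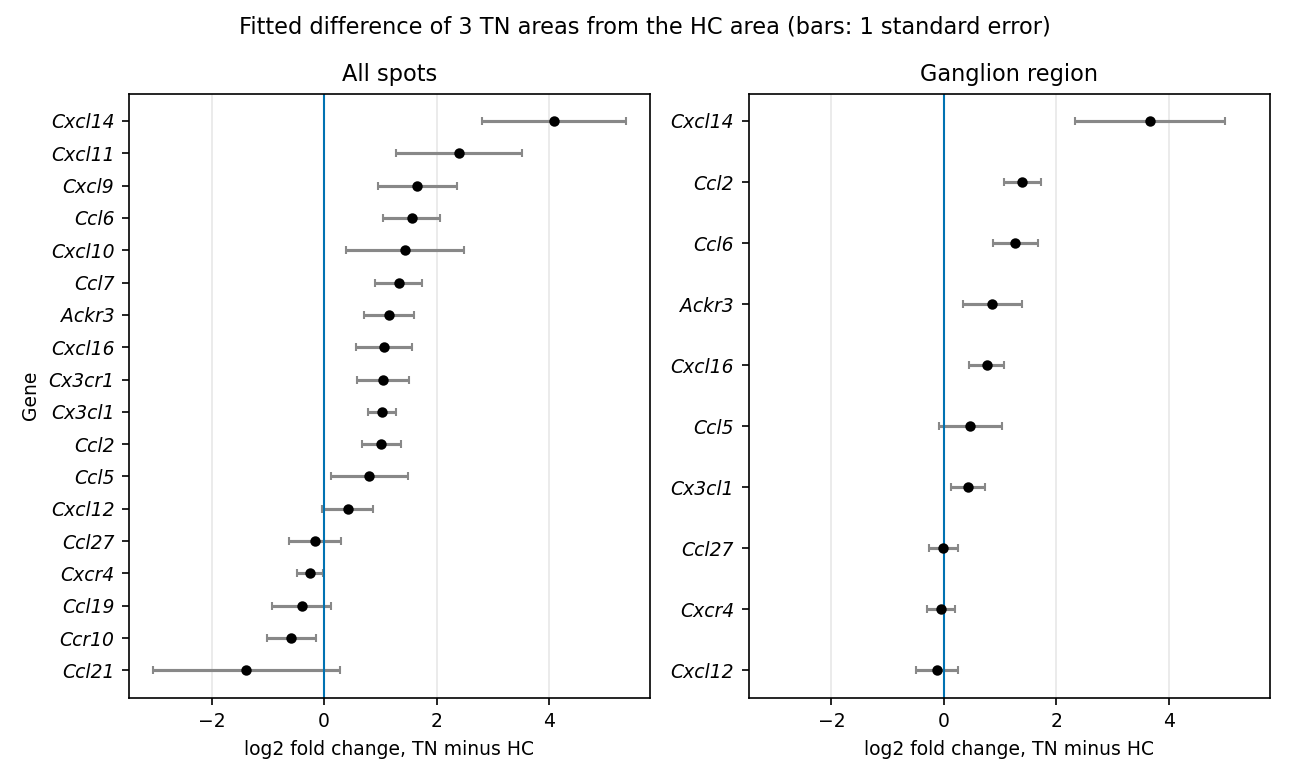
Fitted log2 fold change of TN minus HC (points) with 1 standard error (bars) for members with 300 or more UMIs, over all spots and in the ganglion region. Cxcl14 has the largest value in both panels, 4.10 and 3.67, with standard errors over 1, while Ccl2 in the ganglion region has 1.39 with a standard error of 0.33.

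Spots were then grouped into regions by clustering without the chemokine genes, and regions were named from marker lists. The ganglion region, 2 clusters led by sensory neuron genes (Nefl, Nefm and Tac1) or by neuropeptide and injury genes (Gal, Vip and Reg3b), had 202, 365 and 163 spots in TN1, TN2 and TN3 and 672 in HC, and the second of these clusters had no HC spot. Of the members with 300 or more UMIs there, Ccl2 was the one at least 2-fold above HC in every TN area. Its scaled level (CPM after the trimmed mean of M values, TMM) was 28.9, 46.3 and 32.6 in the TN areas and 13.8 in HC. The log2 fold change was 1.39 (SE 0.33); edgeR did not call it (adjusted p = 0.544) and DESeq2 did (adjusted p = 0.0388). With the cluster shared by all areas alone it was 1.10. Unscaled CPM of Ccl2 in that cluster were 26.1, 38.7 and 24.9 in TN1, TN2 and TN3 against 13.3 in HC. TN1 and TN3 were thus less than 2-fold above HC there.

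Cxcl14 in the ganglion region was at 14.8, 162 and 120 against 7.79 scaled CPM, a log2 fold change of 3.67 (SE 1.34, adjusted p = 0.544). Ccl6 was at 18.9, 34.4 and 21.7 against 10.4 (log2 fold change 1.27, SE 0.40, adjusted p = 0.544), and Cxcl16 at 17.7, 26.9 and 20.1 against 12.8 (0.76, SE 0.31, adjusted p = 0.547). All 3 TN areas were above HC for each of these. Cxcr4 at 36.1, 25.3 and 30.9 against 31.9 and Ccl27 at 36.4, 25.1 and 28.7 against 30.2 overlapped with HC, as did Cxcl12 at 10.4, 18.7 and 18.5 against 17.2. Ccl21 went the other way, with 0, 38 and 1 UMIs in the TN ganglia and 149 in HC. Summed macrophage markers in this region were at 549, 1411 and 811 CPM in TN and 233 in HC, and nerve injury genes (8 genes) at 1496, 2769 and 1566 against 591; their part in the Ccl2 and Ccl6 values was not tested.

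Of 29 members tested in the ganglion region, edgeR called 0 (0% of 12831 genes), and 6 had an unadjusted p under 0.05 (9.06% of all genes). All 3 TN areas were above HC for 16 members (27.5% of all genes), below it for 3, Ccl19, Ccr10 and Ccl21 (29.5%), at least 2-fold above for 4, Ccl2, Ccl17, Cxcl11 and Ccl3 (2.71%), and at least 2-fold below for Ccl21 (0.686%). Except for Ccl2, the 2-fold rises rest on few UMIs, and that of Ccl2 did not hold for TN1 and TN3 in the shared cluster alone. Ccl17 had 9, 39 and 9 against 1 in HC, Cxcl11 7, 13 and 14 against 7, and Ccl3 3, 17 and 3 against 3. Here too a gene counted mostly in TN can pass the filter, and the counts of members were not tested against other genes. DESeq2 called only Ccl2 of the members (0.92% of all genes). Without TN1, edgeR called Ccl2, Ccl6, Cxcl14 and Ccl17 (3.66% of all genes).

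In the central myelin region, a cluster led by oligodendrocyte genes (Mog and Mobp) with 276, 122, 222 and 432 spots, only Cxcl14 of the 11 members tested had enough UMIs for a fold change. It was at 126, 504 and 429 scaled CPM in the TN areas and 79.7 in HC (log2 fold change 2.14, SE 0.72, adjusted p = 0.9996). EdgeR called 0 members (0% of 9072 genes), and DESeq2 called 0 (0.0441% of all genes). At an unadjusted p under 0.05 there were 2, Cxcl14 and Cxcl16 (3.22% of all genes), and both were called without TN1 (5.05% of all genes). All 3 TN areas were above HC for 4 members (20.4% of all genes), Cxcl14, Cx3cl1, Cxcl16 and Ccl2, and below it for Cxcr4 (20.9%). The difference between both regions in TN minus HC was called for 0 of 26 members (0.0235% of 12751 genes). For Cxcl14 that difference was 1.21 on the log2 scale (SE 0.43, adjusted p = 0.853), larger in the ganglion, and Cxcl14 was the only member with an unadjusted p under 0.05 (5.33% of all genes). It was also the only member called without TN1 (0.678% of all genes).

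Cxcl14 was highest in the astrocyte region, at 1740 CPM in TN2 and 2066 in TN3, the areas where that region had at least 20 spots. In central myelin it was at 128, 511 and 418 CPM in the TN areas and 76.5 in HC. Peripheral myelin, a region led by Schwann cell genes such as Pmp22, showed how far TN areas differed from each other: Cxcl14 was at 37.1 CPM in TN1 and 526 in TN3. Its UMIs lay in different regions from area to area. In HC, 53.1% of its UMIs lay in central myelin (12.4% of all UMIs), in TN1 66.3% lay in the central neuron region (24.1% of all), and in TN2 and TN3 46.8% and 40.1% (28.96% and 32.6% of all) lay in a cluster that no marker list named (cluster 5, led by Gpr83, Thbs2 and Thbs4). Cluster 5 had 1 spot in TN1 and 0 in HC. The astrocyte region held 13.9% and 30.2% of the Cxcl14 UMIs and 3.00% and 7.54% of all UMIs in TN2 and TN3. With that region left out the log2 fold change over all spots was 3.83, and within the 4 clusters that had 20 or more spots in every area it was 2.99. Summed astrocyte markers (7 genes) over all spots were at 1041, 1243 and 1740 CPM in TN and 1540 in HC. Gfap, the largest part, was at 385, 798 and 1250 against 1017. All 3 TN areas were above HC for 1 of the 7, Gja1 (91.9, 88.4 and 94.8 against 50.3), and below it for 1. In the central myelin region the sum was 4636, 8498 and 6488 in TN and 6919 in HC. The part of astrocyte content in the Cxcl14 values was not tested.

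**Figure D3:**
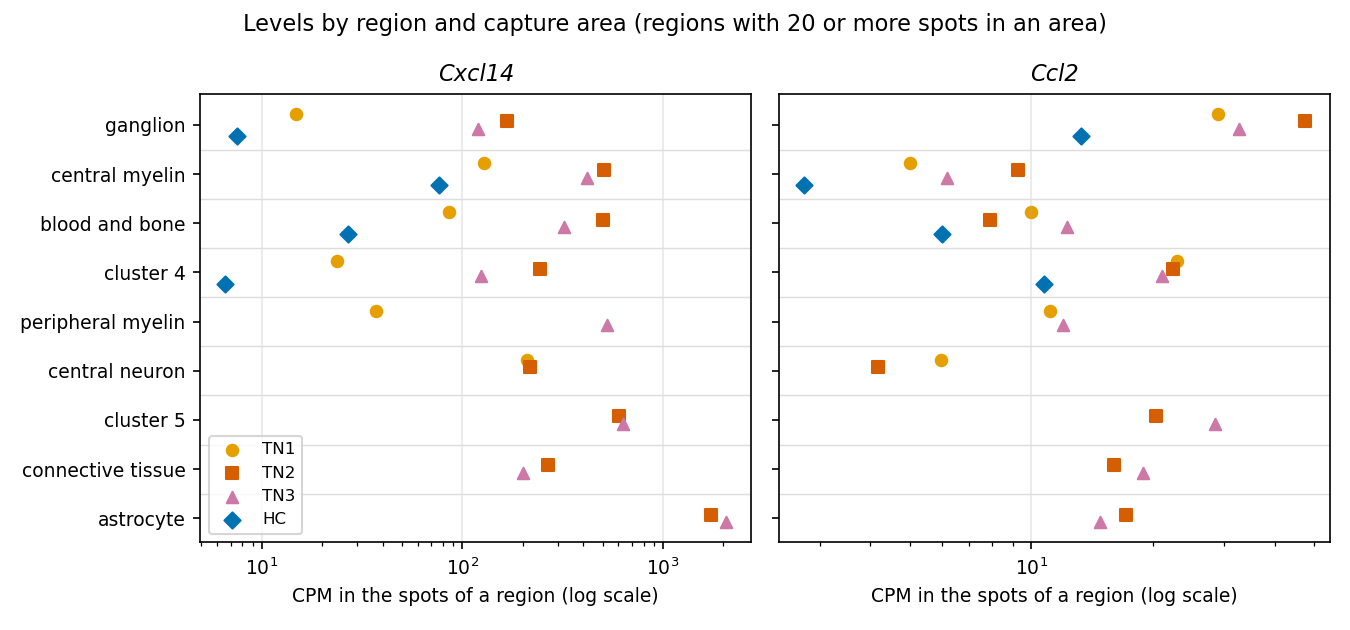
CPM (log scales) of Cxcl14 and Ccl2 in each region and capture area with 20 or more spots. HC is the lowest area in all 4 regions it shares with the TN areas for both genes; Cxcl14 peaks in the astrocyte region (1740 and 2066 CPM) and Ccl2 in the ganglion.

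Ccl2 was highest in the ganglion region, at 29.1, 47.5 and 32.7 CPM in TN and 13.3 in HC. It was lower in the astrocyte region (17.2 and 14.8 in TN2 and TN3), in central myelin (5.02, 9.27 and 6.19 against 2.74) and in central neurons (5.997 in TN1 and 4.18 in TN2). The ganglion held 77.3% of HC's Ccl2 UMIs and 64.6, 66.3 and 29.9% of those in TN1, TN2 and TN3, beside 63.4, 40.1, 40.4 and 21.2% of all UMIs of HC, TN1, TN2 and TN3. In TN3, cluster 5 held more of its Ccl2 UMIs (39.9%) than the ganglion did. Ccr10 had its highest mean among named regions in the ganglion too, at 3.60, 2.56 and 2.92 against 3.89 CPM. Ccl27 was highest in central neurons (42.3 CPM in TN1 and 37.6 in TN2) and the ganglion (36.6, 25.7 and 28.8 against 29.2), and low in the astrocyte region (6.02 and 4.53). Cx3cl1 was at 57.1 and 38.3 CPM in central neurons, 38.7 and 46.1 in the astrocyte region, 39.9 and 43.0 in connective tissue, and 12.1, 17.7, 14.5 and 10.5 in the ganglia of TN1, TN2, TN3 and HC. Its receptor Cx3cr1 was highest in the astrocyte region (11.2 and 9.88 CPM) and lowest of the named regions in the ganglion (0.954, 1.41, 1.02 and 0.496), where Cx3cl1 was also near its lowest.

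The connective tissue region, led by Lbp, Smoc2 and Mgp and present with 20 or more spots in TN2 and TN3, was the highest named region within both areas for 8 of the 18 members with 300 or more UMIs (Cxcr4, Ccl6, Cxcl16, Cxcl12, Ackr3, Ccl5, Ccl21 and Cxcl11). Among them, Cxcl16 was at 74.6 and 70.7 CPM, Ackr3 at 41.3 and 39.3 and Cxcl12 at 67.2 and 42.2, well above their ganglion levels of 27.6 and 20.2, 16.8 and 11.2, and 19.2 and 18.5 in TN2 and TN3. Cxcr4, at 35.4 and 58.3, was near its ganglion level in TN2 (25.9) and above it in TN3 (31.0). The spread between both areas was wide for Ccl6 (37.4 and 89.6 CPM), Ccl5 (8.42 and 32.0) and Cxcl11 (3.13 and 10.2). Among named regions Cxcl10 had its highest mean there too, but from TN3 alone (1.57 and 16.8). Since regions were found in these same spots, their order is a description. With 12 clusters, or with log-normalised counts before clustering, the highest named region was the same for 15 of the 18 members each time. Ccl5 and Cxcl9 changed in both, and Ccl5 moved from connective tissue to blood and bone. Ccl19 also changed with 12 clusters. Cxcr4 changed with log-normalised counts, to the ganglion (mean 34.0 CPM against 33.7 in connective tissue).

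**Figure D4:**
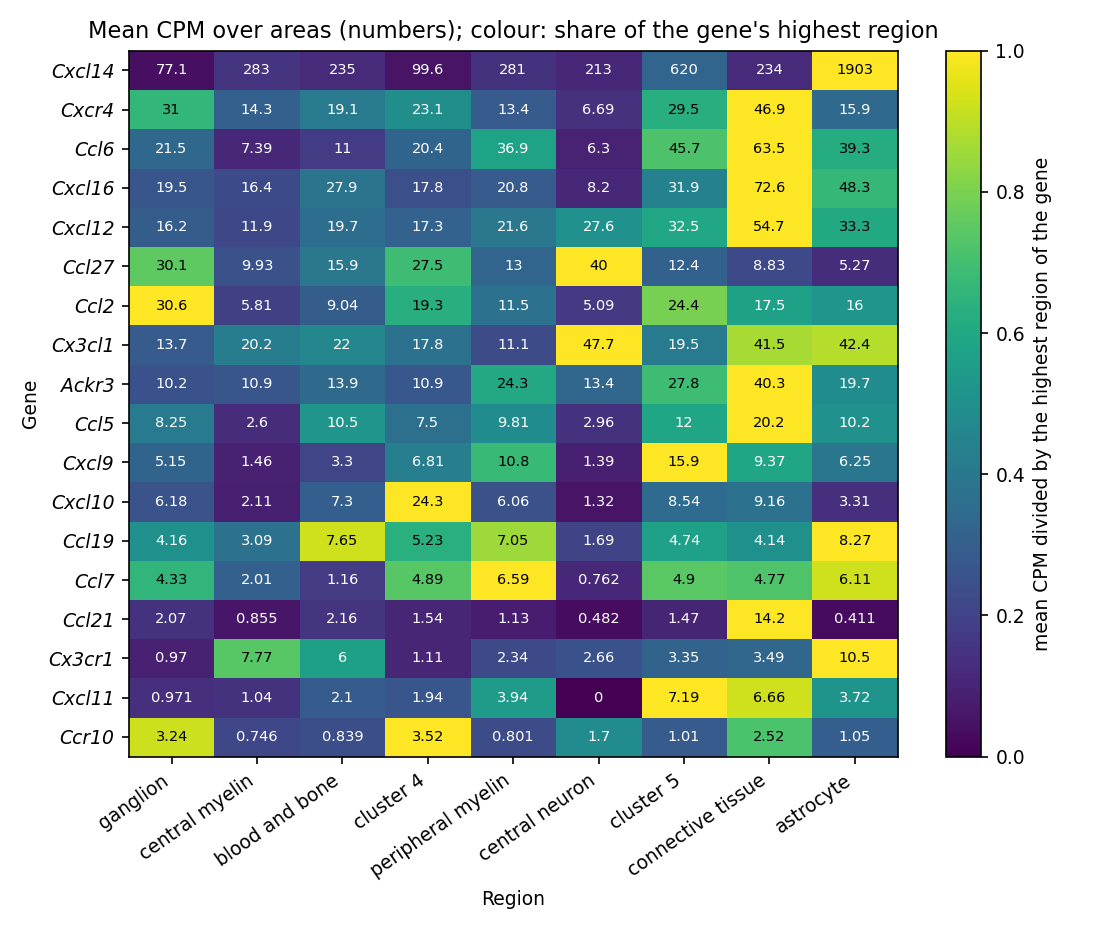
Mean CPM over the capture areas with 20 or more spots of a region (numbers) for the 18 members with 300 or more UMIs, coloured as a share of the gene's highest column. Cxcl14 peaks at 1903 in the astrocyte region, Cxcl16 is at 72.6 and Cxcl12 at 54.7 in connective tissue, a column of TN2 and TN3 only, and the Cxcl10 value of 24.3 in cluster 4 comes mostly from TN1, where it was 87.7.

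In TN1, Cxcl10 was concentrated in a few spots. Of its 405 UMIs in TN1, 137 lay in 1 spot and 69.6% in the 10 richest of 1587 spots, against 25.5, 26.7 and 19.1% in the 10 richest spots of TN2, TN3 and HC. The 10 spots were split between cluster 4, a cluster of mixed Schwann cell and sensory neuron genes, and the ganglion region. Without the richest spot the level in TN1 was 11.4 CPM, and without all 10 it was 5.33, against 5.99 in TN3, 2.14 in TN2 and 2.69 in HC treated the same way. Those 10 spots set the position of TN1 above TN3.

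Those 10 spots were also rich in interferon-stimulated genes. The genes with the largest excess there over the other TN1 spots, besides Cxcl10, were the antiviral genes Isg15, Rsad2, Mx1, Mx2, Ifit2 and Oas1a, the interferon regulators Irf7 and Usp18, and the antigen-presentation genes Cd74 and RT1-Db1. Isg15 was at 406 CPM in them and 11.1 in the other TN1 spots, and Rsad2 at 215 and 6.59. As these genes were chosen on TN1 after its values were seen, the same genes were read in the other areas. Their richest spots held fewer Cxcl10 UMIs each: 4 to 2 in TN2, 15 to 3 in TN3 and 5 to 2 in HC, against 137 to 4 in TN1. Spots of TN2 and HC were thus hardly set apart by Cxcl10, and lower ratios there cannot be read as a difference between areas. In the 10 Cxcl10-richest spots of TN3, all 10 genes were again higher than in the remaining spots, by 2.02-fold (Cd74) to 17.9-fold (Isg15). In TN2 the ratios for 9 of them were 1.78 to 4.55, and Rsad2 had 0 UMIs in the 10 spots. In HC the ratios were 0.376 to 2.61, with 5 of 10 above 1, and those of Irf7 and Usp18 rest on 1 UMI each in the 10 spots. Cxcl9 and Cxcl11 followed Cxcl10 in TN1, at 53.6 against 3.04 CPM and 20.6 against 0.867, whereas Cxcl14 did not (10.3 against 77.3).

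**Figure D5:**
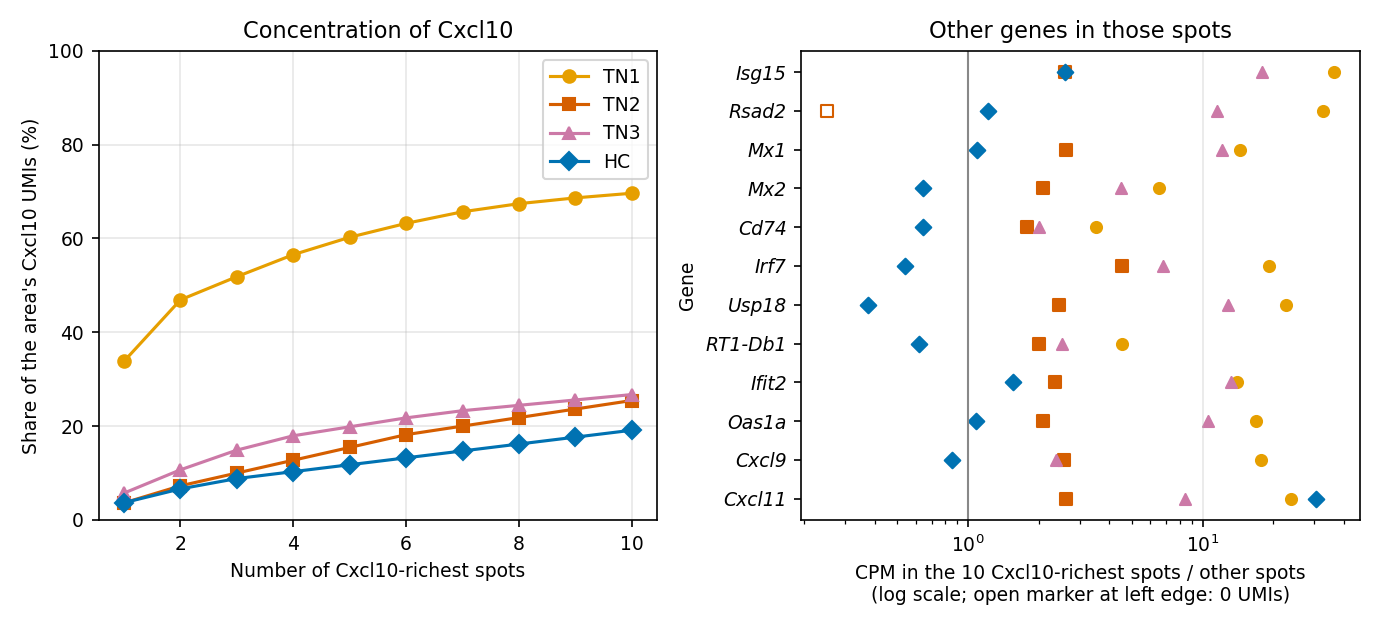
Left, the cumulative share of an area's Cxcl10 UMIs held by its 1 to 10 richest spots; right, the ratio of CPM in those 10 spots to all other spots (log scale, same markers) for the genes that led them in TN1 and for Cxcl9 and Cxcl11. TN1 reaches 69.6% within 10 spots, and TN1 and TN3 lie to the right of TN2 and HC for most interferon-stimulated genes. The richest spots of TN2 and HC held only 4 and 5 Cxcl10 UMIs, and the Cxcl11 ratio in HC rests on 6 UMIs.

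The promoter letters of the members were also read. Known inducers of Cxcl10, interferon and inflammatory cytokines, act through the interferon-stimulated response element (ISRE) and NF-kB sites. Their part in the Cxcl10-rich spots was not tested. Promoters (RefSeq, build GRCr8) were held for 26 of the 33 members, and the 250 bases before the start were searched on both strands for GAAANNGAAA (ISRE) and for the NF-kB consensus. The stretch of Cxcl10 at chr14:15988816-15988958 (plus strand) is shown with the matches in capitals, beside the matching stretch of Cxcl11 at chr14:15973644-15973673 (plus strand) and that of Ccl19 at chr5:61761196-61761225 (minus strand), the other member with an ISRE match.
Cxcl10: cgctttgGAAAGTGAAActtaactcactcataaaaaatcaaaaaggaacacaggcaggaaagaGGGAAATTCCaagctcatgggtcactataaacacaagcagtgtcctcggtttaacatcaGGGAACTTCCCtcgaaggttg
Cxcl11: gagtcaagagGGGAAATTCCtgactctctg
Ccl19: tttttggacaGAAAGTGAAAgctcaaggca
In Cxcl10 the first capitals are the ISRE match and the other 2 runs are NF-kB matches, the last of them on both strands with an overlap. The ISRE letters were in 2 of the 26 member promoters and in 3.41% of all 33469, and the NF-kB letters in 5 of the 26 (Cxcl10, Cxcl11, Cxcl1, Ccl7 and Ccl9) and in 6.33% of all. A match is a description of the sequence and not evidence of binding.

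Ccl21 was more concentrated than Cxcl10 in the other 3 areas, where its 10 richest spots held 54.5, 59.6 and 33.3% of its UMIs in TN2, TN3 and HC. In TN2 45 of its 165 UMIs lay in 1 spot, and 63.0% of them lay in connective tissue, whereas in HC 76.4% of its 195 UMIs lay in the ganglion region, which held 63.4% of all UMIs, and the richest spot held 11. By contrast, the 10 richest spots held 6.04 to 11.1% of the Cxcl14 UMIs of an area.

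Ligands and receptors were set side by side in the same spots, as shares of spots with a UMI. Deeper spots hold more of both, so the shares are descriptions. Cxcr4 was found in 51.6% of HC spots with Cxcl12 and in 30.4% of those without, and in TN1, TN2 and TN3 in 33.6, 53.2 and 41.7% against 15.6, 36.5 and 22.9%. Ackr3 was found in 18.9, 54.4, 37.0 and 17.3% of spots with Cxcl12 in TN1, TN2, TN3 and HC, against 14.98, 32.6, 20.1 and 12.7% of those without. Ccr10 was found in 7.84, 9.2, 4.42 and 11.4% of spots with Ccl27 in TN1, TN2, TN3 and HC, against 1.63, 3.84, 2.19 and 2.76% of those without. Cx3cr1 was found in 4.15, 7.57, 6.42 and 2.49% of spots with Cx3cl1 in TN1, TN2, TN3 and HC, against 2.91, 8.13, 4.46 and 2.60% of those without, so the areas did not share a direction. Among ligands, Ccl7 was found in 14.8, 19.5, 13.2 and 6.89% of spots with Ccl2 in TN1, TN2, TN3 and HC, against 3.16, 9.61, 4.51 and 2.68% of those without. Cxcl1 and Cxcr2, Cxcl16 and Cxcr6, Cxcl13 and Cxcr5, and Ccl21 and Ccr7 could not be paired in this way, since the receptors had between 0 and 11 UMIs.

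Over 29 combinations of cluster and area with enough spots, the levels of the 10 members with 1000 or more UMIs were compared with 8488 other genes, by Pearson correlation of log2 levels. The points share areas and libraries, so the values are descriptions. The gene most like Cxcl14 was Baalc (r = 0.90), a gene of astrocytes and neural progenitors, followed by Tnfrsf19 (0.89) and Trem2 (0.88), a microglial and macrophage receptor. For Ccl6 it was Clec4a1 (0.91), a lectin of myeloid cells, and for Ackr3 Lepr (0.90) and Cd248 (0.89), genes of perivascular and connective tissue cells. Ccl27 went most with Rell2 (0.96) and Ncs1 (0.95), a neuronal calcium sensor, and Ccl2 with Vwa5a (0.94) and S1pr3 (0.91). Among the members, Ackr3 and its ligand Cxcl12 were the most alike (0.79), and Ccl27 and Cxcl14 the least (-0.62), while Cxcl12 and Cxcr4 were at 0.15.

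Other genes of the pathway were read from 4 lists, and edgeR called 0 of their genes over all spots. The counts below stand beside 28.7% of all genes above HC in all 3 TN areas and 30.6% below, and were not tested against them. Of 8 chemokines, receptors and related genes with other symbols tested, all 3 TN areas were above HC for 7 and below it for 0. The largest difference was that of Xcr1, a receptor of cross-presenting dendritic cells, with 2, 48 and 43 UMIs against 2. Its ligand Xcl1 had 20, 23 and 32 UMIs against 2, and Pf4 (Cxcl4), a platelet and macrophage chemokine, was at 14.1, 67.9 and 29.3 scaled CPM against 4.14. Of 28 receptor signalling genes, 12 were above HC in all 3 TN areas and 5 below. Rgs1, a regulator that dampens receptor signalling in leukocytes, differed most upwards (log2 fold change 2.17, SE 0.76, adjusted p = 0.556), and Arrb1, a beta-arrestin, most downwards (-1.28, SE 0.51, adjusted p = 0.556). Of 15 inducing cytokines and factors, 9 were above and 0 below. Of 12 genes of chemokine processing and presentation, 7 were above and 1 below. Dpp4, a protease that trims chemokines, was at 1.35, 8.53 and 4.14 scaled CPM against 0.934, and Lyve1, of lymphatic endothelium and some macrophages, was at 3.15, 3.61 and 4.86 against 6.61. The medians of the log2 fold changes were 1.502, 0.47, 0.88 and 1.09 for the 4 lists, beside 0.06 over all genes.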

How the data were processed

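The authors aligned and counted reads with Space Ranger (version 1.2.0 per the file header; the submitters' notes also name STAR) and deposited UMI counts per gene and spot as whole numbers for spots over tissue, without normalization, with 4 capture areas in a single matrix. The genome build, annotation release and strand setting of the counting: not given in the sources used here. Counts were summed per area, and per area and region. TN and HC sums were compared with edgeR 4.0.16 (quasi-likelihood test, TMM, filterByExpr, Benjamini-Hochberg adjustment over all genes tested, threshold 0.05, 2 residual degrees of freedom for the 4 areas), and with DESeq2 1.42.0 as an alternative. The difference between regions was fitted over the sums of both regions. Standard errors of edgeR fold changes were derived from the test, as the absolute log2 fold change divided by the square root of the quasi-likelihood F statistic. Intervals are exact binomial ones and, like floors of 3 counts, cover counting error only.

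For regions, the 16088 genes with a UMI in 10 or more spots entered SCTransform (sctransform 0.4.2, Seurat 5.3.0, R 4.3.3). After 11 members among the most variable genes were left out, the 3000 most variable of the other genes were used. The spots were split into 10 clusters by K-means (50 starts) on 30 principal components. A cluster was named from a marker list that led the next by 0.25 on centred log2 (CPM + 5) and stayed unnamed where its 10 leading genes held more markers of another list. No spot positions were used and no cell-type makeup was estimated. Region levels are given for areas with 20 or more spots of a region. Genes that led the Cxcl10-richest spots were ranked by log2 ratio of CPM + 50. Fold changes are given for members with 300 or more UMIs in the sums tested, levels for those with 30 or more. Members with 1000 or more UMIs were compared with other genes, and ligand and receptor pairs and pathway lists were chosen by hand. The members and lists were chosen with earlier results of these data known. The values of 1 member with 30 or more UMIs and of a few other genes are not reported here. The code was tested on simulated data.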

Additional observations from a re-analysis of the deposited data

How the results depend on the processing

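No paired analysis was possible because HC is a single area and no label links its 2 animals to the TN areas. Leaving out each TN area in turn gave 0 to 13 called members over all spots, 0 to 4 in the ganglion region, 0 to 2 in central myelin and 0 to 1 for the difference between regions, the higher number always without TN1, which leaves 1 residual degree of freedom in the first 3. DESeq2 called 1 member over all spots and 1 in the ganglion region. The other alternatives run (size factors, no filter on low counts, mitochondrial, ribosomal protein and hemoglobin genes or shallow spots left out, single regions left out, other clusterings) called 0 members, as did 2 chosen after seeing the data, the astrocyte region left out and cluster 2 alone as the ganglion, and a further such choice, the clusters with 20 or more spots in every area. The highest region was the same for 15 of 18 members under each of the other clusterings, though not the same 15.

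Directions turned for 3 genes close to 0. Over all spots, the log2 fold change of Ccl27 was -0.54 to 0.067 with each TN area left out (positive without TN3) and 0.14 in the shared clusters, where Cxcl12 became -0.14. In the ganglion region, leaving out each TN area gave -0.25 to 0.11 for Cxcl12 (positive without TN1), -0.18 to 0.13 for Ccl27 (positive without TN2 or TN3) and -0.19 to 0.086 for Cxcr4 (positive without TN2). Ccl27 became 0.017 without mitochondrial, ribosomal protein and hemoglobin genes, 0.15 with log-normalised clustering and 0.21 in cluster 2 alone. Cxcr4 became 0.16 with log-normalised clustering and 0.13 in cluster 2 alone. The cause was not tested. TN1 had the fewest UMIs, and members with under 100 UMIs are limited by depth.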
